A study of Homo sapiens with 6 samples.

Results

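RAB proteins are the largest family of small GTPases that steer membrane traffic. Each cycles between a GTP-bound form on a membrane and a GDP-bound form, switched on by exchange factors and off by GTPase-activating proteins. A lipid tail added by prenylation holds a RAB on its organelle, and the active form recruits effectors that move, tether or fuse vesicles. RASEF is a larger relative that joins a RAB-type GTPase domain to EF-hand calcium-binding motifs. The family was taken as every protein-coding gene with a RAB symbol of the form RAB, a number and at most 1 letter with 1 further digit, plus RASEF. This gave 64 of 19762 protein-coding genes, in a table of 58174 gene IDs, and their RNA levels are described across an ARID1A knockout experiment.

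ARID1A encodes a subunit through which BAF, a complex that remodels chromatin, binds DNA. The cells were MDA-MB-231, an established human line from a triple-negative breast cancer, and RNA-seq compared cells labelled as ARID1A knockouts, KO1 and KO2, with control cells, NC. The labels list 6 samples, 2 per group, but the table holds 1 column of estimated counts per group, and whether a column is 1 library or both is not given in the sources used here. Nor do they say whether KO1 and KO2 are clones, pools or guides. No spread between replicates could be computed, so each bracketed 95% interval is a counting interval and covers counting error only. Both knockout comparisons use the same NC column.

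The columns held 25801499 (KO1), 26144758 (KO2) and 26798753 (NC) counts. The mitochondrial genome took 20.5% of counts in KO1, 16.9% in KO2 and 12.8% in NC, and its part in the differences below was not tested. The level of ARID1A RNA, as counts scaled to library size (CPM), was 45.5 CPM in the library column labelled KO1 and 83.9 CPM in the one labelled KO2, against 77.5 CPM in NC. It was 1.70-fold lower than NC in KO1 (1.58 to 1.84) and 1.08-fold higher in KO2 (1.02 to 1.15), and edgeR's quasi-likelihood test gave an adjusted p of 0.987. ARID1A RNA was thus not lower in KO2 than in NC, and KO1 and KO2 name the columns by their labels throughout. Of 5 genes known to be expressed in MDA-MB-231, all 5 were measured, among them the intermediate filament gene VIM at 4695 CPM in KO1, 2924 CPM in KO2 and 3422 CPM in NC. By the size rule given below, EGFR was higher in both knockout columns, SPARC was lower in KO1, and the other 3, AXL, CD44 and VIM, passed in neither column. Of 10 luminal breast markers 6 were measured, with a summed level of 1147 CPM in KO1, 862 CPM in KO2 and 683 CPM in NC, and the progesterone receptor gene PGR was at 0 in every column. By the same rule FOXA1, a transcription factor of luminal cells, was higher in both knockout columns, with 47 counts in KO1 and 30 in KO2, against 0 in NC. So was SPDEF, another luminal transcription factor, with 42 counts in KO1 and 291 in KO2, against 2 in NC, and DESeq2 also called SPDEF. The luminal keratin KRT18 was higher in KO1 alone, and 0 of the 6 were lower in either column. The part of these markers in the results was not tested.

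A difference was called by size, with no p-value. A gene passed when its fold was at least 2 (log2 of 1, with a prior count of 2), its interval excluded equality and its mean over the 3 columns reached 1 CPM, the level at which a gene is called measured here. The only test of knockout against control joined KO1 and KO2 as 1 group against NC in edgeR, which leaves 1 residual degree of freedom and assumes that NC varies as the knockout columns do. Only genes that passed this test are said to have risen or fallen. Of the 64 members 51 were measured. The other 13 were RAB3B, RAB3C, RAB6C, RAB17, RAB19, RAB25, RAB26, RAB33A, RAB37, RAB39A, RAB39B, RAB41 and RAB44, and of these RAB3C, RAB19, RAB25 and RAB39B had 0 counts in every column.

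Start-site sequence is shown for 3 members that differed from NC in both knockout columns and lie on different chromosomes, so that the genes behind the values can be seen. They were chosen after their values were known. Each window runs from 250 bases before to 50 after a RefSeq gene start (GRCh38.p14), is written 5′ to 3′ on the gene's strand, and lies within 136 bases of the start of the transcript that carries most of the gene's counts. Capitals mark every match to the searched motifs, in either direction. RASEF (chr9:83063093-83063392, minus strand) had no counts in NC. RAB31 (chr18:9708051-9708350, plus strand) had the highest TPM of the members higher in both knockout columns. RAB3D (chr19:11339608-11339907, minus strand) was lower in both.
RASEF: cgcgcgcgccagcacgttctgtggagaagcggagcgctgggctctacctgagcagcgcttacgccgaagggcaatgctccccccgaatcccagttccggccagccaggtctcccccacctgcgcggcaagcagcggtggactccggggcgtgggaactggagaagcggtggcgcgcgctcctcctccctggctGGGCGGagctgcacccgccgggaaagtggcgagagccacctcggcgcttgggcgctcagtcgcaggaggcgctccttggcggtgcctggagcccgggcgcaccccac
RAB31: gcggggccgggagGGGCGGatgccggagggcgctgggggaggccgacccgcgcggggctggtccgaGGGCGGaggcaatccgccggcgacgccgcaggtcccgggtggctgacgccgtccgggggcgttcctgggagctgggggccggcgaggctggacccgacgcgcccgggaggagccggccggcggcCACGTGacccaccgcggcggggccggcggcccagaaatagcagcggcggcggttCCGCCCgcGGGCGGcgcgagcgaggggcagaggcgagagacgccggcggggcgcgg
RAB3D: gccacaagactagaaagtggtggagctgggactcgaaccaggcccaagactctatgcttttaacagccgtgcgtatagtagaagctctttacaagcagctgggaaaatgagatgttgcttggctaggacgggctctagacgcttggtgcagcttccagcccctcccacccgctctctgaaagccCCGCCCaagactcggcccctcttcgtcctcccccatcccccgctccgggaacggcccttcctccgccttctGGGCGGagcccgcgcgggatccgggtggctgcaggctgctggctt

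The windows of RASEF, RAB31 and RAB3D hold 33, 52 and 18 CpG dinucleotides, where the median of 35116 RefSeq windows of the same length is 14. Of 6 motifs searched on both strands, GGGCGG, the core of the GC box, occurs 1 time in RASEF, 4 times in RAB31 and 2 times in RAB3D, and in 45.0% of all windows. The E-box CACGTG occurs 1 time, in RAB31, and in 7.26% of all windows. The other 4 motifs have no match in these 3 windows. They are the TATA element TATAAA, found in 11.5% of all windows, the CCAAT box, found in 34.6%, the AP-1 site TGANTCA, found in 7.71%, and the TEAD site GGAATG, found in 14.0%. A window was found for 48 of the 60 members with counts, and RAB38 and RAB15 have no entry. A match is a description of these letters only.

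Taken over the whole family, the RAB genes did not move in 1 direction. Among the 51 measured members, 6 were higher and 10 lower in KO1 than in NC by the size rule, or 31.4%, where 32.9% of all 14522 measured genes passed (15.2% higher and 17.7% lower). In KO2, 7 were higher and 8 lower than in NC, or 29.4%, against 21.1% of all genes (11.0% higher and 10.1% lower). In both columns in the same direction, 4 were higher and 5 lower, or 17.6%, against 12.0% of all genes (6.18% higher and 5.78% lower), and 0 passed in opposite directions. In all, 23 members passed in at least 1 of the 3 comparisons, KO2 over KO1 included, and 28 measured members passed in none. The KO1 share is thus near that of all genes, and the counts of members are read in that light. The splits depend on the scaling. With total counts in place of TMM factors, 5 members were higher and 15 lower in KO1, and 33.3% of the passing genes of all kinds were higher, where it was 46.1% with TMM. With deposited TPM the member split was 3 higher and 18 lower, and 25.9% of all passing genes were higher. A measured gene passed with TPM, here and below, when log2(TPM + 0.1) differed by at least 1. No interval was applied to TPM, so in that respect the rule is looser than the one on counts.

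The median log2 fold of the members was 0.02 for KO1 over NC and -0.22 for KO2 over NC, and that of all measured genes -0.02 and -0.01. The sign of the KO1 median was negative with DESeq2 size factors (-0.02), total counts (-0.19) and TPM (-0.47), where the median of all genes also shifted, to -0.06, -0.24 and -0.39. Within 1.5-fold of NC lay 49.0% of members in KO1 and 51.0% in KO2, against 45.0% and 56.3% of all genes. In summed TPM, a unit that scales for transcript length, the family was at 1323 in KO1, 1787 in KO2 and 2113 in NC. In summed CPM, which does not scale for length, it was at 2614 in KO1, 2490 in KO2 and 3018 in NC, so both sums were highest in NC and the order of KO1 and KO2 depends on the unit. RAB1B made up 10.4% of the family TPM in KO1 and 13.4% in KO2, against 22.2% in NC. The other members among the top 3 by TPM were RAB7A and RAB11B in KO1, RAB7A and RAB13 in KO2, and RAB7A and RAB11B in NC.

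**Figure D1:**
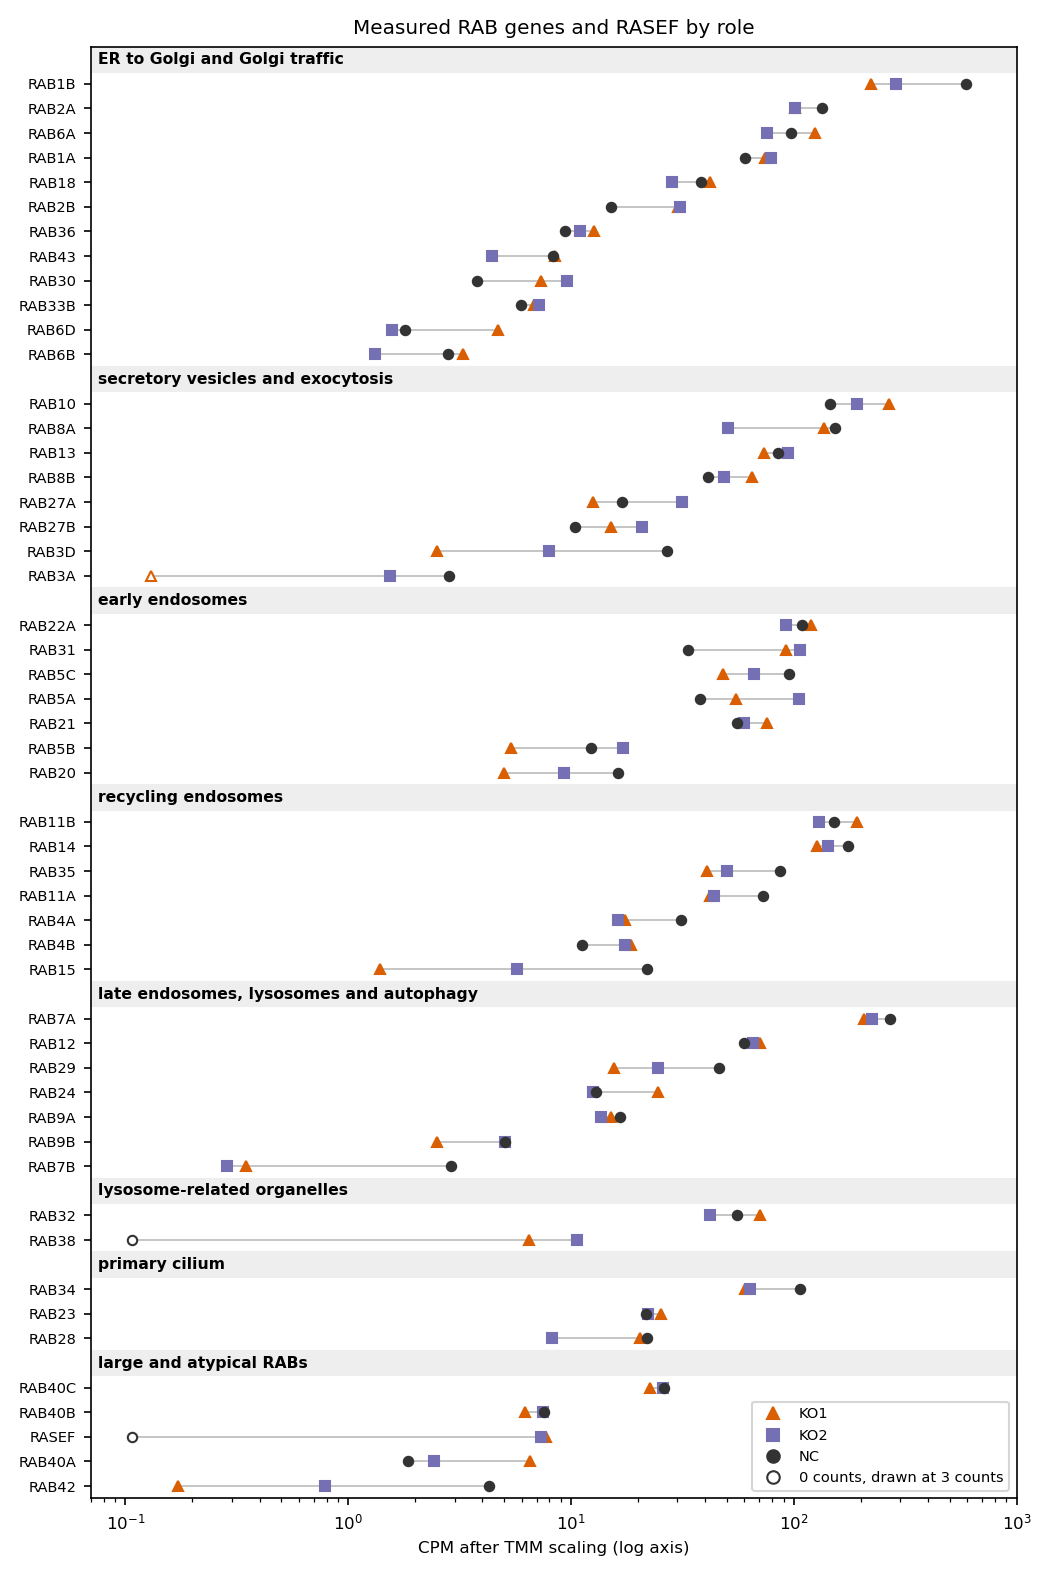
Level of each of the 51 measured members in CPM on a log axis, ordered by role, with 1 point each for KO1, KO2 and NC; open symbols mark 0 counts, drawn at the floor of 3 counts. RAB38 and RASEF have points in KO1 and KO2 but 0 counts in NC, and RAB1B lies at 223 CPM in KO1 and 288 CPM in KO2, against 590 CPM in NC.

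RAB38 and RASEF rose, and neither had a count in NC. RAB38 sorts cargo to melanosomes and other lysosome-related organelles, together with its near relative RAB32. RAB38 (ENSG00000123892, hg38 chromosome 11, 88113242 to 88175467) had 150 counts in KO1 and 297 in KO2, against 0 in NC. That is 6.49 CPM in KO1 and 10.6 CPM in KO2, at least 60.4-fold higher in KO1 and 98.7-fold higher in KO2, with NC set to a floor of 3 counts. The lower ends of the counting intervals were 48.5-fold in KO1 and 79.7-fold in KO2. RASEF (ENSG00000165105, hg38 chromosome 9, 82979585 to 83063177) had 178 counts in KO1 and 206 in KO2, against 0 in NC. That is 7.70 CPM in KO1 and 7.35 CPM in KO2, at least 71.6-fold higher in KO1 and 68.4-fold higher in KO2 by the same floor, with lower interval ends of 57.7-fold in KO1 and 55.2-fold in KO2.

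By edgeR both genes passed, with adjusted p = 0.0230 for RAB38 and adjusted p = 0.0231 for RASEF, and each was higher in 2 of 2 knockout columns. They were 2 of 59 members tested, where edgeR called 0.476% of 18289 genes (0.224% higher and 0.252% lower). An unadjusted p under 0.05 was found for 8 members, which also include RAB3B, RAB31, RAB3D, RAB7B, RAB15 and RAB42, where 8.38% of all 18289 genes (1532) had one. Over 6 other fits (edgeR or DESeq2), adjusted p ranged from 4.89e-06 to 0.134 for RAB38 and from 1.11e-05 to 0.138 for RASEF. Both passed in 4 of those fits and missed on nuclear protein-coding genes alone and with TMM recomputed after filtering plus robust dispersions. These p-values rest on the spread between KO1 and KO2 and measure no variation between cultures of a genotype.

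The RAB38 counts came from 1 main transcript, ENST00000243662, with 129 counts in KO1, 297 in KO2 and 0 in NC. A second, ENST00000531138, had 21 counts in KO1 and 0 in the other columns. For RASEF, ENST00000376447 held 178 counts in KO1, 204 in KO2 and 0 in NC. The median log2 fold of 100 measured genes beside each on its chromosome was small, 0.14 in KO1 and 0.33 in KO2 around RAB38, and 0.29 and 0.23 around RASEF. RAB32 did not pass by size and was at 70.5 CPM in KO1 and 42.2 CPM in KO2, against 55.3 CPM in NC. RAB38 thus made up 7.58% of the summed TPM of this pair in KO1 and 17.3% in KO2, against 0% in NC. RAB44, another large RAB with EF-hands, had only 5 counts in KO1 and 10 in KO2, against 0 in NC, and was below the measured level. In bulk RNA, a change in the number of cells that express a gene and a change in RNA per cell cannot be told apart.

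Since RAB38 is known from pigment cells, melanocyte markers and RAB38 partners were read beside it. Of 12 melanocyte markers 2 were measured, MITF and SLC24A5, and their list summed to 13.5 CPM in KO1, 7.07 CPM in KO2 and 4.87 CPM in NC. MITF, the master regulator of melanocytes, was at 9.56 CPM in KO1, 3.75 CPM in KO2 and 2.54 CPM in NC. By the size rule MITF and SLC24A5 were both higher in KO1 than in NC, and neither passed in KO2. MITF was also lower in KO2 than in KO1. Of the other markers, TYR, TYRP1, OCA2, SOX10 and TRPM1 were at 0 in every column. PMEL, MLANA, DCT, SLC45A2 and GPR143 had counts in at least 1 column but were below the measured level. The part of these markers in the RAB38 values was not tested. Leukocyte markers summed to 2.16 CPM in KO1, 9.42 CPM in KO2 and 10.6 CPM in NC, with 2 of 12 measured and SPI1, CD2 and MS4A1 among those at 0 in every column. By the size rule the 2 measured, CD14 and CD34, were lower in KO1 than in NC and higher in KO2 than in KO1. Neither passed in KO2 against NC. Of 20 measured partners of RAB38 and RAB32, which include subunits of the BLOC complexes, AP-3 and the retromer, 1 was higher in both knockout columns and 0 lower, where 6.18% and 5.78% of all measured genes were. It was VPS26A, a retromer subunit, at 113 CPM in KO1 and 117 CPM in KO2, against 44.5 CPM in NC.

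**Figure D2:**
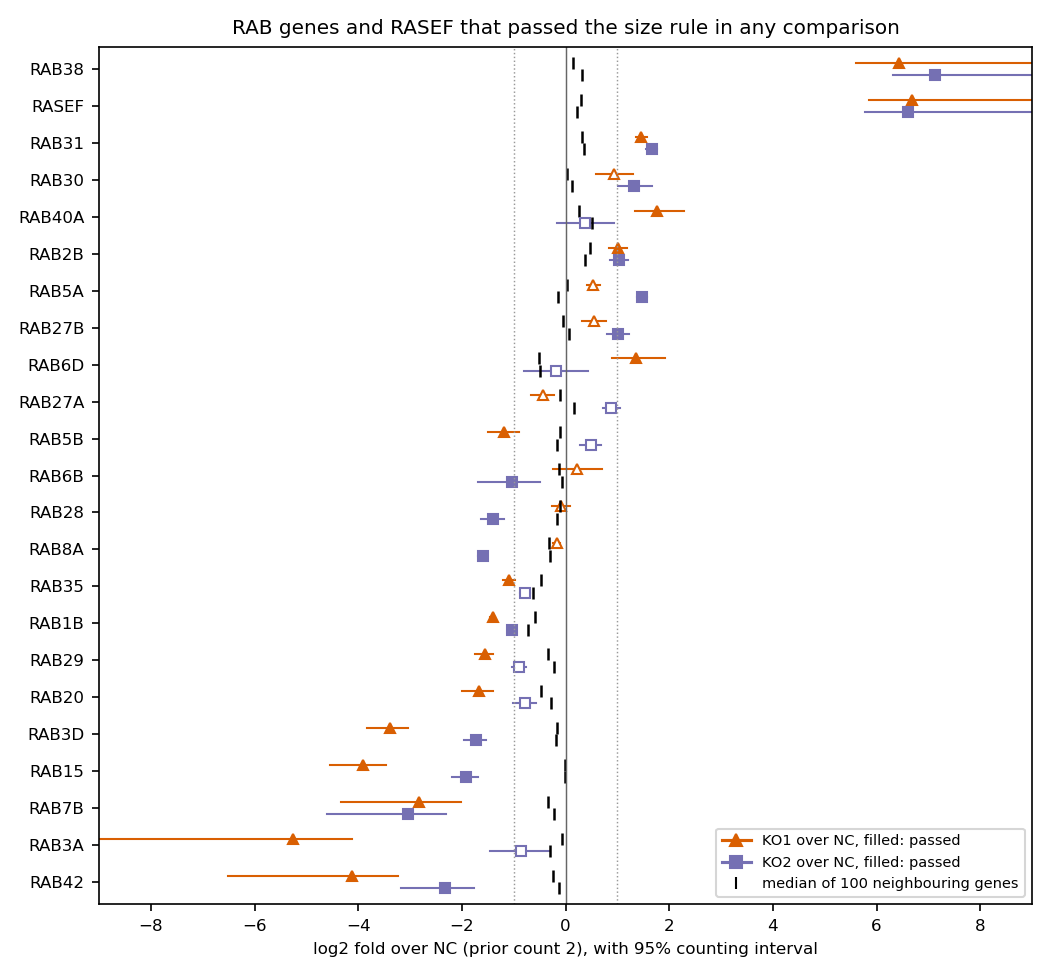
Log2 fold over NC in KO1 and KO2, with 95% counting intervals, for the 23 members that passed the size rule in at least 1 of the 3 comparisons. Filled symbols passed, dotted lines mark the threshold and black ticks the median of up to 100 neighbouring genes. RAB38, RASEF, RAB31 and RAB2B lie to the right of 0 in both columns and RAB1B, RAB42, RAB7B, RAB15 and RAB3D to the left in both; the upper ends of the RAB38 and RASEF intervals have no limit because NC had 0 counts, and the RAB3A interval in KO1 has no lower limit because KO1 had 0 counts.

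Among RABs of the Golgi and the early secretory route, the abundant RAB1B was lower and the scarcer RAB2B higher in both knockout columns. Of 12 measured members in this role, 1 was higher and 1 lower in both, where 6.18% and 5.78% of all measured genes were. RAB1B carries vesicles from the endoplasmic reticulum to the Golgi. RAB1B (hg38 chromosome 11, 66268533 to 66277492) was at 223 CPM in KO1 and 288 CPM in KO2, against 590 CPM in NC. It was 2.65-fold (2.57 to 2.73) lower in KO1 and 2.05-fold (1.99 to 2.10) lower in KO2. Its adjusted p was 0.662 (edgeR). The 100 genes around RAB1B were themselves at a median of -0.58 (KO1) and -0.73 (KO2) on the log2 scale, and with these subtracted the log2 fold of RAB1B was -0.82 and -0.30 and it no longer passed. In KO2 it also missed the threshold with total counts (-0.99) and with TPM (-0.97).

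Its paralog RAB1A, which acts at the same step, was at 74.3 CPM in KO1 and 79.3 CPM in KO2, against 60.3 CPM in NC, and did not pass. RAB1A therefore made up 22.8% of the RAB1 pair by TPM in KO1 and 19.0% in KO2, against 8.16% in NC. Estimated counts of near-identical copies can be divided wrongly, and RAB1B has a processed copy, RAB1C, so its level is uncertain to that extent. RAB2B, of a pair that keeps Golgi structure and traffic, was at 30.3 CPM in KO1 and 30.7 CPM in KO2, against 15.0 CPM in NC. It was 2.01-fold (1.78 to 2.28) and 2.04-fold (1.81 to 2.30) higher, just past the threshold, and it missed the threshold in 1 or both columns with DESeq2 size factors, total counts, TPM or the neighbourhood median (0.47 and 0.37 log2) subtracted. RAB2A, its paralog, was at 101 CPM in KO1 and 102 CPM in KO2, against 134 CPM in NC.

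Other Golgi RABs passed in 1 column. RAB30 was at 7.31 CPM in KO1 and 9.60 CPM in KO2, against 3.80 CPM in NC, and passed in KO2, 2.53-fold higher (2.01 to 3.20). The direction was the opposite in TPM, where RAB30 passed as lower in KO1 with a log2 fold of -1.19, against 0.93 from counts, and was at -0.43 in KO2. RAB6B was at 3.29 CPM in KO1 and 1.32 CPM in KO2, against 2.79 CPM in NC, and was 2.12-fold lower than NC in KO2 (1.41 to 3.22). This missed the threshold with TPM (log2 fold -0.88) and with the neighbourhood median subtracted (-0.96). RAB6D was at 4.71 CPM in KO1 and 1.57 CPM in KO2, against 1.79 CPM in NC, and was 2.63-fold higher in KO1 (1.87 to 3.76), which did not pass with TPM. RAB6D is nearly identical to RAB6A and RAB6C, so its estimated counts are uncertain. The other 7 measured members of this role, RAB1A, RAB2A, RAB6A, RAB18, RAB33B, RAB36 and RAB43, had log2 folds of -0.40 to 0.43 in KO1 and -0.90 to 0.39 in KO2.

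In early endosomes RAB31 was higher in both knockout columns, and the 3 RAB5 paralogs took different courses. RAB31, also called RAB22B, works between the trans-Golgi network and early endosomes. RAB31 (ENSG00000168461, hg38 chromosome 18, 9708165 to 9862551) had 2140 counts in KO1 and 2972 in KO2, against 935 in NC. Its level was 92.6 CPM in KO1 and 106 CPM in KO2, against 33.5 CPM in NC. It was 2.76-fold (2.56 to 2.99) and 3.17-fold (2.94 to 3.41) higher, with adjusted p = 0.470 (edgeR). Its neighbours had median log2 folds of 0.32 and 0.37, and with these subtracted RAB31 was at 1.14 and 1.30 and still passed in both columns. With TPM its log2 fold in KO1 was 0.93 and did not pass. RAB22A, its closest paralog, was at 120 CPM in KO1 and 92.4 CPM in KO2, against 109 CPM in NC, so that RAB31 took 64.9% of the TPM of the pair in KO1 and 75.6% in KO2, against 45.4% in NC.

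The RAB5 proteins drive fusion of early endosomes. RAB5A was at 55.2 CPM in KO1 and 106 CPM in KO2, against 38.0 CPM in NC, and passed in KO2, 2.78-fold higher (2.59 to 2.98). RAB5B was at 5.36 CPM in KO1 and 17.1 CPM in KO2, against 12.3 CPM in NC, and was 2.28-fold lower in KO1 (1.85 to 2.83). With TPM it passed as higher in KO2 (log2 fold 1.02). RAB5C, the most abundant of the 3 by TPM in NC, was at 48.3 CPM in KO1 and 66.5 CPM in KO2, against 94.8 CPM in NC, with log2 folds of -0.97 and -0.51 that did not pass. In KO1 RAB5C passed as lower with DESeq2 size factors (-1.01), total counts (-1.19) and TPM (-1.46). It overlaps the gene ENSG00000267261 on the same strand, so its estimated counts are uncertain. RAB5A made up 46.2% of RAB5 TPM in KO1 and 45.6% in KO2, against 21.2% in NC, and RAB5C 50.5% in KO1 and 46.7% in KO2, against 74.4% in NC. RAB20, an endosomal and phagosomal RAB, was at 5.02 CPM in KO1 and 9.32 CPM in KO2, against 16.2 CPM in NC. It was 3.23-fold lower in KO1 (2.63 to 3.99), and in KO2 it was 1.74-fold lower (1.49 to 2.03) and did not pass. RAB21, which moves integrins through endosomes, did not pass in either column, with log2 folds of 0.44 and 0.11.

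**Figure D3:**
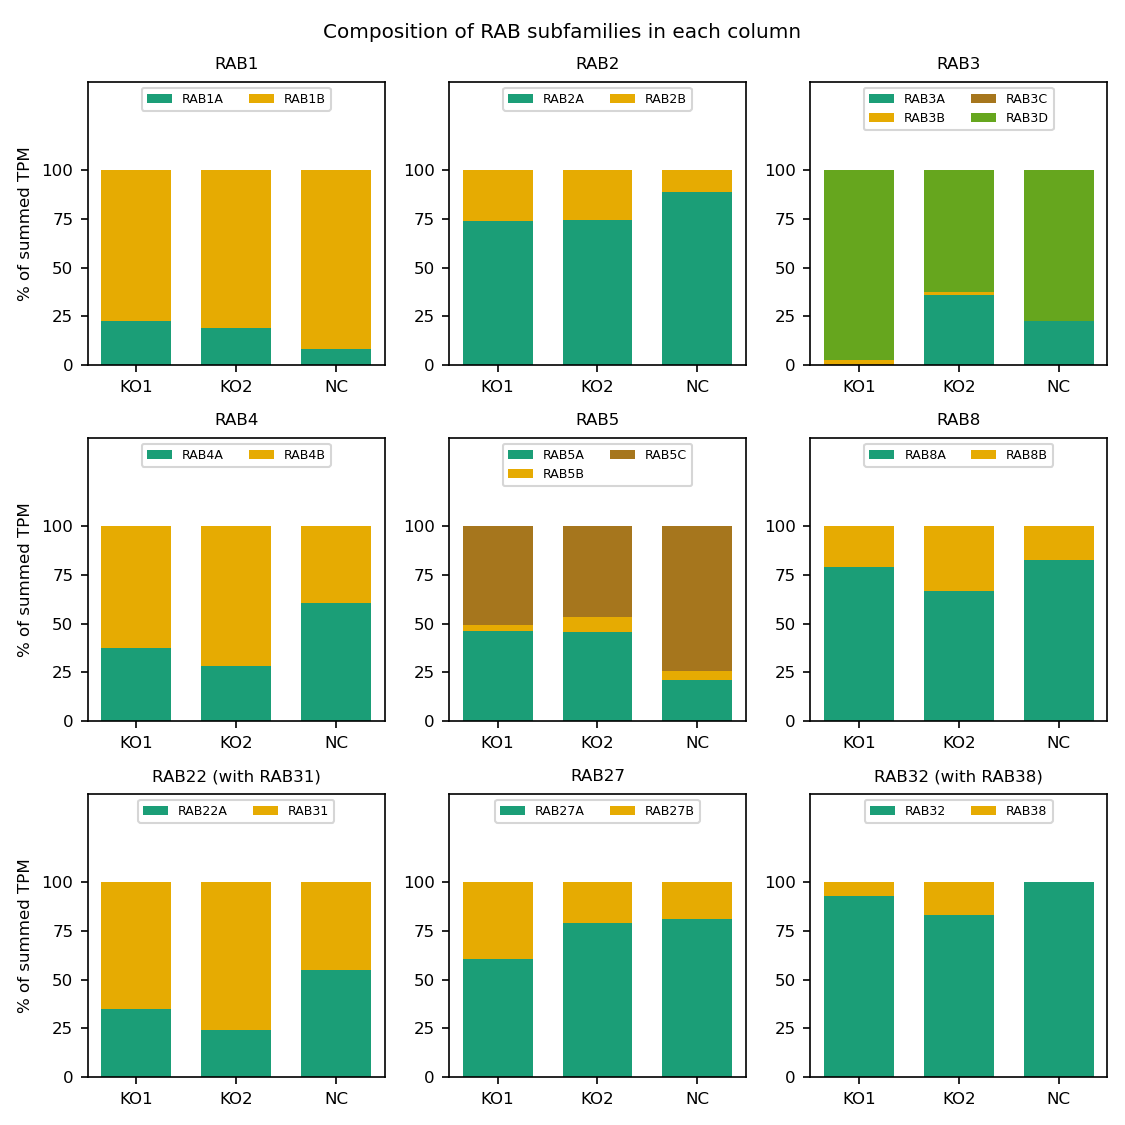
Share of summed TPM held by each paralog in 9 RAB subfamilies, as stacked bars in percent for KO1, KO2 and NC. RAB1A, RAB2B, RAB4B, RAB5A, RAB8B, RAB27B and RAB31 hold a larger share in both knockout columns than in NC, and so do RAB38 and RAB3B, which are at 0% in NC.

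Among late endosomal and lysosomal RABs, 0 were higher and 1 lower in both columns, of 7 measured. The shares of all measured genes were 6.18% higher and 5.78% lower. The lower one was RAB7B, which acts in transport between endosomes and the trans-Golgi network, with 8 counts in KO1 and 8 in KO2, against 81 in NC. It was 8.39-fold (4.06 to 20.1) lower in KO1 and 10.2-fold (4.92 to 24.3) lower in KO2, with adjusted p = 0.316 (edgeR). RAB7A, the main RAB of late endosomes and lysosomes and the highest of this role by TPM, was at 206 CPM in KO1 and 225 CPM in KO2, against 269 CPM in NC, and did not pass. RAB29, which recruits the kinase LRRK2 to membranes, was at 15.5 CPM in KO1 and 24.6 CPM in KO2, against 46.0 CPM in NC. It was 2.96-fold lower in KO1 (2.63 to 3.34), and 1.87-fold lower in KO2 (1.71 to 2.06), where it did not pass. With TPM RAB29 passed as lower in KO2 too, at a log2 fold of -1.02. The remaining RAB9A, RAB9B, RAB12 and RAB24 had log2 folds of -0.99 to 0.92 in KO1 and -0.28 to 0.14 in KO2. RAB9B, at -0.99 in KO1, passed there as lower under other settings. Among these were DESeq2 size factors, total counts, TPM (-1.26) and the neighbourhood median subtracted (-1.27).

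Recycling RABs return internalised receptors to the cell surface. Of 7 measured, 0 were higher and 1, RAB15, was lower in both columns, where 6.18% and 5.78% of all measured genes were. RAB15 (ENSG00000139998, hg38 chromosome 14, 64945814 to 64972776) had 32 counts in KO1 and 160 in KO2, against 610 in NC. Its level was 1.38 CPM in KO1 and 5.71 CPM in KO2, against 21.9 CPM in NC. It was 15.8-fold (11.1 to 23.3) and 3.83-fold (3.21 to 4.58) lower, with adjusted p = 0.278 (edgeR), and its neighbours had medians of -0.01 in both columns. The gap between the knockout columns was itself 4.13-fold, higher in KO2 than in KO1 (2.81 to 6.24).

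RAB35, which serves fast recycling and the last step of cell division, was at 40.7 CPM in KO1 and 50.3 CPM in KO2, against 86.6 CPM in NC. It was 2.13-fold lower in KO1 (1.97 to 2.29) and 1.72-fold lower in KO2 (1.61 to 1.84), where it did not pass. Its neighbours had a median log2 fold of -0.47 in KO1, and with this subtracted RAB35 was at -0.62 and no longer passed. The RAB11 pair, the main markers of recycling endosomes, did not pass. RAB11A was at 42.1 CPM in KO1 and 44.1 CPM in KO2, against 72.7 CPM in NC, and RAB11B at 192 CPM in KO1 and 129 CPM in KO2, against 151 CPM in NC. With total counts or TPM, RAB11A passed as lower in KO1 (TPM log2 fold -1.41). RAB14, which links the Golgi and recycling endosomes, was at 126 CPM in KO1 and 142 CPM in KO2, against 176 CPM in NC, and did not pass. The RAB4 pair differed in sign without passing, RAB4A with log2 folds of -0.84 and -0.93 and RAB4B with 0.72 and 0.63. RAB4A also passed as lower in KO1 with total counts or TPM (TPM log2 fold -1.08). RAB4B overlaps the read-through gene RAB4B-EGLN2 on the same strand, and its estimated counts are uncertain. Retained-intron transcripts made up 90.2% of RAB4B counts in KO1 and 40.6% in KO2, against 82.5% in NC. Its coding transcripts had 42 counts in KO1 and 213 in KO2, against 55 in NC, and on these alone RAB4B passed as 3.86-fold higher in KO2 (2.86 to 5.29) and was at a log2 fold of -0.11 in KO1. With TPM it passed in KO2 as well, where its log2 fold was 1.13, and it was at 0.26 in KO1.

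Among RABs of secretory vesicles and exocytosis, RAB3D was lower in both columns and 0 members were higher in both, of 8 measured. The shares of all measured genes were 5.78% lower and 6.18% higher. RAB3D, a RAB of regulated secretory granules, had 58 counts in KO1 and 224 in KO2, against 749 in NC. Its level was 2.51 CPM in KO1 and 7.997 CPM in KO2, against 26.8 CPM in NC. It was 10.7-fold (8.18 to 14.2) and 3.36-fold (2.89 to 3.91) lower, with adjusted p = 0.296 (edgeR). RAB3D overlaps TMEM205 on the same strand, a gene with 514 counts in KO1, 543 in KO2 and 859 in NC, so its estimated counts are uncertain. RAB3A, the synaptic vesicle RAB, had 0 counts in KO1 and 43 in KO2, against 79 in NC. It was at least 21.8-fold lower in KO1, with the column at 0 set to a floor of 3 counts (17.3-fold at the lower end of its counting interval), and 1.84-fold lower in KO2 (1.26 to 2.74), where it did not pass. RAB3B had 6 counts in KO1 and 16 in KO2, against 0 in NC, and was below the measured level.

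RAB8A, which carries cargo from the Golgi to the plasma membrane and cilia, was at 136 CPM in KO1 and 50.5 CPM in KO2, against 153 CPM in NC. It was 3.02-fold lower than NC in KO2 (2.85 to 3.21), and in KO1 1.12-fold lower (1.07 to 1.18), which did not pass. RAB27A and RAB27B dock secretory lysosomes and exosome-bearing endosomes at the plasma membrane. RAB27A was at 12.5 CPM in KO1 and 31.4 CPM in KO2, against 17.02 CPM in NC, and passed against NC in neither column. With TPM it just passed as lower in KO1 (log2 fold -1.003). It overlaps PIGBOS1 on the same strand, which makes its estimated counts uncertain. RAB27B was at 15.2 CPM in KO1 and 20.9 CPM in KO2, against 10.4 CPM in NC, and passed in KO2 at 2.01-fold (1.74 to 2.32). That call was lost with DESeq2 size factors (log2 fold 0.98) and with the neighbourhood median subtracted (0.93). RAB10, which moves glucose transporters to the surface, was at 268 CPM in KO1 and 193 CPM in KO2, against 146 CPM in NC, and did not pass. RAB13, found at tight junctions, was at 73.7 CPM in KO1 and 93.7 CPM in KO2, against 84.8 CPM in NC, and RAB8B, a paralog of RAB8A, at 64.6 CPM in KO1 and 48.5 CPM in KO2, against 41.3 CPM in NC.

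In the remaining roles, RAB42 was lower in both columns, with 4 counts in KO1 and 22 in KO2, against 119 in NC. It was 24.6-fold (9.38 to 91.9) and 5.43-fold (3.42 to 8.99) lower, with adjusted p = 0.338 (edgeR). RAB42 lies opposite TAF12, and whether the authors' counting used strand is not given in the sources used here, so reads of the pair may not be told apart. The same limit holds for other members called by size that overlap a gene with counts on the opposite strand. Among them are RAB2B (TOX4), RAB3A (MPV17L2), RAB6B (SRPRB), RAB15 (CHURC1-FNTB) and RAB35 (RAB35-AS1). The RAB40 proteins are substrate adaptors of ubiquitin ligases. RAB40A was at 6.53 CPM in KO1 and 2.43 CPM in KO2, against 1.86 CPM in NC, and was 3.51-fold higher in KO1 (2.54 to 4.90), though it has a near-identical copy, RAB40AL. RAB40B and RAB40C did not pass, with log2 folds of -0.28 to -0.02 over both columns. With TPM RAB40B passed as lower in KO1 (log2 fold -1.26). In the primary cilium, RAB34, needed to build the cilium, was at 60.3 CPM in KO1 and 63.5 CPM in KO2, against 106 CPM in NC, and did not pass. With total counts (log2 fold -1.03) or TPM (-1.22) RAB34 passed as lower in KO1. RAB23, which restrains Hedgehog signalling in mouse, was at 25.3 CPM in KO1 and 22.1 CPM in KO2, against 21.6 CPM in NC, and did not pass. RAB28, which acts at cilia of photoreceptors, was at 20.5 CPM in KO1 and 8.21 CPM in KO2, against 21.8 CPM in NC, and was 2.66-fold lower in KO2 (2.28 to 3.11), though RAB28 has pseudogene copies that can share its reads.

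Some of these gene totals were made up of different transcripts in each column. Most RAB28 counts in NC came from ENST00000508274, an isoform annotated as a target of nonsense-mediated decay, with 0 counts in KO1, 19 in KO2 and 369 in NC. The coding isoform ENST00000330852 had 400 counts in KO1 and 148 in KO2, against 89 in NC. Decay-annotated counts were thus 0% of RAB28 in KO1 and 8.26% in KO2, against 60.6% in NC. With coding transcripts alone, RAB28 was higher in KO1 (log2 fold 1.24, which passed) and its KO2 value was -0.19, which did not pass. RAB35 also had a decay-annotated isoform that was most abundant in NC. This transcript, ENST00000544304, had 7 counts in KO1 and 54 in KO2, against 385 in NC, and with coding transcripts alone its log2 fold in KO1 was -0.81 and did not pass. For RAB34 the decay-annotated share was instead 47.9% in KO1 and 27.5% in KO2, against 17.7% in NC, and its coding transcripts gave a log2 fold of -2.09 in KO1, which passed. Retained-intron transcripts made up 27.1% of RAB24 counts in KO1 and 57.3% in KO2, against 36.0% in NC. With coding transcripts alone RAB24 passed as 2.16-fold higher in KO1 (1.84 to 2.55) and was at a log2 fold of -0.62 in KO2. It then also passed as lower in KO2 than in KO1 (log2 fold -1.73). RAB24 overlaps MXD3 on the same strand, a gene with 1232 counts in KO1, 1837 in KO2 and 1365 in NC. The estimated counts of RAB24 are therefore uncertain.

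RAB30 was carried by different transcripts in the knockout and control columns. ENST00000533486 had 168 counts in KO1 and 263 in KO2, against 0 in NC. ENST00000534141 had 0 counts in KO1 and 5 in KO2, against 76 in NC, and ENST00000260056 had 0 in both knockout columns and 25 in NC. The scale then decides the direction, for in TPM RAB30 was at 0.97 in KO1 and 1.71 in KO2, against 2.34 in NC. RAB27A was carried by different isoforms in KO2. ENST00000336787 had 106 counts in KO1 and 842 in KO2, against 246 in NC, while ENST00000396307 had 176 in KO1 and 2 in KO2, against 198 in NC. All are estimates that divide fragments among overlapping isoforms, with no error given for that division.

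**Figure D4:**
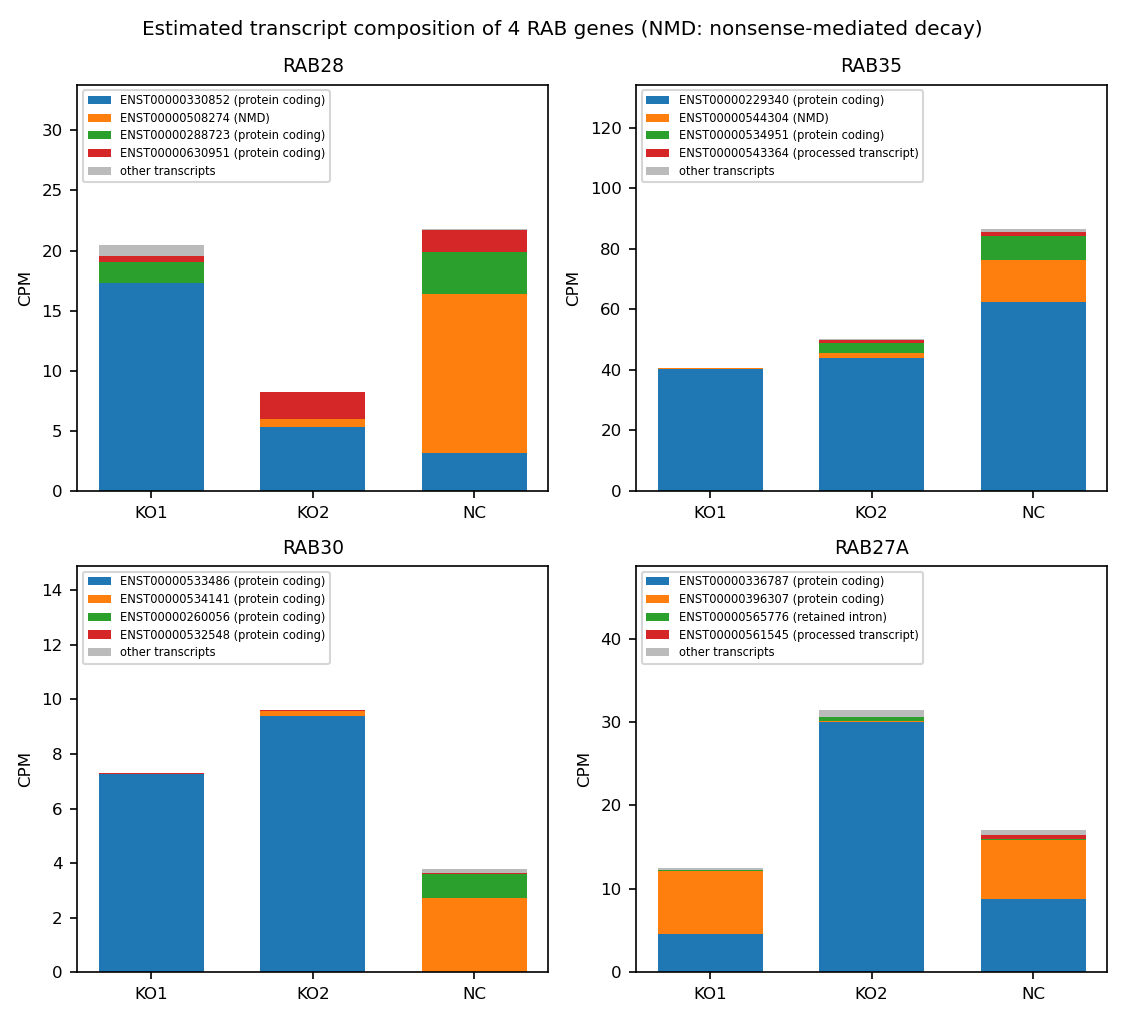
Level in CPM of the 4 most abundant transcripts of RAB28, RAB35, RAB30 and RAB27A, with all others in grey, as stacked bars for KO1, KO2 and NC. The decay-annotated RAB28 transcript fills most of the NC bar and is at 0 counts in KO1, and the main RAB30 transcript of KO1 and KO2 is at 0 counts in NC.

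The 2 knockout columns also differed from each other. For KO2 over KO1, 6 members were higher and 5 lower, or 21.6% of the measured members, against 26.2% of all genes (15.1% higher and 11.1% lower). The higher ones were RAB3A, RAB3D, RAB5B, RAB15, RAB27A and RAB42, and the lower ones RAB6B, RAB6D, RAB8A, RAB28 and RAB40A. RAB5B was 3.19-fold (2.62 to 3.92) and RAB27A 2.51-fold (2.20 to 2.88) higher in KO2 than in KO1, and RAB8A 2.69-fold (2.53 to 2.87) lower. With the neighbourhood median subtracted the log2 fold of RAB27A was 0.92 and did not pass. RAB3D, RAB15 and RAB42 were lower than NC in both columns and lowest in KO1. RAB38 was 1.63-fold higher in KO2 than in KO1 (1.34 to 2.002) and did not pass, and RASEF was 1.05-fold lower (0.852 to 1.29). With TPM RAB38 passed as higher in KO2 than in KO1, at a log2 fold of 1.02. With total counts the member split was 9 higher and 5 lower, and 74.8% of all passing genes were higher, where it was 57.6% with TMM. With TPM the split was 14 and 1, RAB6D being the member that stayed lower, with 82.8% of all passing genes higher, and the median of all genes then stood at 0.30 (total counts) and 0.46 (TPM) log2.

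The genes that switch, anchor and read RABs were compared as lists. The edgeR test called 0 genes in every one of these lists and DESeq2 also called 0, with unadjusted p under 0.05 in edgeR for 0 of 8 prenylation and recycling genes, 4 of 34 exchange factors, 5 of 33 GTPase-activating proteins, 4 of 45 effectors and 2 of 20 partners of RAB38 and RAB32, where 8.38% of all genes had one. By the size rule, 0 of 8 prenylation and recycling genes passed in both columns, with log2 medians of -0.09 (KO1) and 0.32 (KO2). Of all measured genes 6.18% were higher and 5.78% lower in both columns, the background for the counts of these lists. Of 33 measured exchange factors 2 were higher and 2 lower in both, with medians of -0.14 and 0.04, so both counts are near the background. RIC1, part of the exchange factor for RAB6, was at 30.4 CPM in KO1 and 43.7 CPM in KO2, against 12.4 CPM in NC. DENND2D, of a family that activates RAB9, was at 2.08 CPM in KO1 and 1.96 CPM in KO2, against 0.287 CPM in NC. RAB3IL1, an exchange factor for RAB3A and RAB8, was at 7.40 CPM in KO1 and 0.9996 CPM in KO2, against 24.2 CPM in NC, and DENND2A was at 2.55 CPM in KO1 and 6.53 CPM in KO2, against 14.6 CPM in NC.

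Of 33 measured GTPase-activating proteins 2 were higher and 3 lower in both columns, with medians of -0.55 in KO1 and -0.18 in KO2, against a background of 6.18% higher and 5.78% lower. TBC1D8 was at 59.0 CPM in KO1 and 41.7 CPM in KO2, against 17.8 CPM in NC, and TBC1D8B at 1.99 CPM in KO1 and 7.25 CPM in KO2, against 0.430 CPM in NC. TBC1D1, which restrains RABs of glucose transporter traffic, was at 15.0 CPM in KO1 and 43.7 CPM in KO2, against 88.1 CPM in NC. TBC1D5, which acts on RAB7 at the retromer, was at 14.4 CPM in KO1 and 18.4 CPM in KO2, against 38.7 CPM in NC, and TBC1D12 at 6.75 CPM in KO1 and 9.96 CPM in KO2, against 29.3 CPM in NC. Of 43 measured effectors 3 were higher and 0 lower in both, against the same background, with medians of 0.11 and 0.15. MLPH, or melanophilin, which couples RAB27A to a myosin, was at 116 CPM in KO1 and 68.6 CPM in KO2, against 31.8 CPM in NC. EXPH5, a further RAB27 effector, was at 15.7 CPM in KO1 and 8.10 CPM in KO2, against 3.44 CPM in NC. MYO5B, a motor for RAB11-positive recycling endosomes, was at 9.78 CPM in KO1 and 3.998 CPM in KO2, against 0.896 CPM in NC.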

How the data were processed

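Per the labels' protocols, RNA was extracted with Trizol and sequenced after a stranded total RNA library preparation. The build hg38 and the tools CASAVA, Bowtie2 and featureCounts stand in the submitters' processing notes, with neither role nor version. The deposited table covers 199167 transcripts and, per the file headers, gives a count, a TPM and an FPKM, in 1 column per group and unit, and 0 columns were left unmatched. The deposited Count values were taken as estimated counts that the authors rounded up to whole numbers, since 99.5% (KO1), 99.4% (KO2) and 99.4% (NC) of transcripts with 1 to 10 counts lay 0 to 1 above the count implied by the deposited FPKM, within a tolerance of 0.05. The deposited TPM and FPKM are the authors' values, and TPM was summed per gene.

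Counts were summed per gene ID over all transcripts. Symbols are current ones for 57392 gene IDs, and gene and transcript types come from GENCODE release 29. CPM used TMM factors over all genes (edgeR 4.0.16, R 4.3.3). Intervals are Clopper-Pearson, conditional on the summed count; no molecular identifiers are named in the labels and fragments need not be independent, so intervals and the floor of 3 counts per column cover counting error only. edgeR's quasi-likelihood F test was two-sided, after filterByExpr, with Benjamini-Hochberg adjustment over all genes and a threshold of 0.05; DESeq2 1.42.0 was an alternative. Fits were also run on simulated counts with planted changes, as a check of the code. All simulated columns had the same spread, so this is no support for the calls reported here. Each neighbourhood is up to 100 measured genes outside the family on the same chromosome, 50 on each side, or fewer on a side where the chromosome ends first.

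Named members are those that passed the size rule in any of the 3 comparisons, RAB38, RASEF and their nearest relatives, and the member with the highest mean TPM in each of 8 roles; of each other list, up to 4 genes per direction that passed in both knockout columns. Other genes and the transcripts named were chosen after their values were seen. The members and all gene lists were chosen with earlier results of these data known. Proteins were not analysed here.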

Additional observations from a re-analysis of the deposited data

How the results depend on the processing

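Of the counts by comparison, 66 stayed within 1.5 times under an alternative setting and 12 moved. This tally compares numbers of calls, not which genes were called. For example, 7 members were higher in KO2 than in NC with counts and 7 with TPM, but only 5 were shared. At a 1.5-fold threshold, 11 members were higher and 15 lower in KO1, where 3771 and 4124 of all 14522 measured genes were, and 9 higher and 16 lower in KO2 (3189 and 3072 of all genes). In both columns 6 were higher and 12 lower (1805 and 1804 of all genes), and in KO2 against KO1 11 were higher and 9 lower (3809 and 3147 of all genes). At the 2-fold threshold with TMM factors from nuclear protein-coding genes, the members called against NC were the same. RAB24 was then added as lower in KO2 than in KO1. With log2(TPM + 0.1), 3 were higher and 18 lower in KO1, 2 higher in both, and 14 higher and 1 lower in KO2 than in KO1. RAB30 reversed there, with a log2 fold of -0.43 in KO2 against 1.32 from counts and of -1.19 in KO1, which passed as lower, against 0.93, and its transcripts differ between the columns. RAB1B no longer passed in KO2 with total counts or TPM, or in either column with the neighbourhood subtraction, which was added after seeing the data; the causes were not tested. edgeR called 0 members on nuclear protein-coding genes alone (0 genes in all, 1044 at an unadjusted p under 0.05, 8 members among them) and 0 with TMM recomputed after the filter and robust dispersions, also added after seeing the data (27 genes in all). Over all fits the calls ranged from 0 to 493 genes: 87 as reported, 293 with DESeq2, 38 with DESeq2 size factors, 493 with no filter and 48 with TMM recomputed after the filter.

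No paired analysis was possible because the columns carry no replicate numbers, and for the same reason leaving out each replicate in turn was not run. With 1 column per group, depth limits the counting intervals only, and the spread between cultures is unknown.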
